A study of Mus musculus with 10 samples.

Results

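The Dlk1-Dio3 miRNA cluster was examined in mIMCD-3, a mouse cell line derived from inner medullary collecting duct. Members were all probes for a single miRNA whose mouse name carried one of 37 numbers of the cluster, with any letter, copy or arm. This gave 78 of the 1040 mouse miRNA probes on the array. Total RNA was measured on single-colour arrays in 5 samples treated with 100 nM aldosterone, the mineralocorticoid hormone of the distal nephron, and in 5 samples treated with the ethanol vehicle. Both groups had been grown to confluence on transwell filters and kept for 24 h in medium without hormones. How long treatment lasted is not given in the sources used here. The labels do not state that samples were separate cultures, so each p-value reflects the spread among these samples alone, and that spread may be technical.

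The Dlk1-Dio3 locus is imprinted. Its miRNAs are processed from long noncoding transcripts of the maternally inherited chromosome (Meg3, the antisense transcript of Rtl1, Rian and Mirg), while Dlk1, Rtl1 and Dio3 are expressed from the paternal copy. The miRNAs are known above all from embryo, placenta and brain. In bulk RNA, fewer expressing cells and less RNA per cell cannot be told apart.

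The members with signal and those without differed in base composition, with exceptions. Among those without, miR-666-3p and miR-666-5p had 68.2% G and C and miR-673-3p had 65.2%. Mature sequences are shown for a choice of members that leaves out these and some tested members. They are RefSeq sequences of GRCm38.p6, all on chromosome 12, written 5′ to 3′ with the seed (bases 2 to 8) in capitals. The first 8 passed the detection threshold on at least 5 arrays.
miR-494: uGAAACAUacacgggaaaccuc
miR-370: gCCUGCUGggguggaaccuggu
miR-667: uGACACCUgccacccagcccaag
miR-668: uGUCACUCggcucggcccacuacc
miR-665: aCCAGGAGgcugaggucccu
miR-323-5p: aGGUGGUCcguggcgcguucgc
miR-679-3p: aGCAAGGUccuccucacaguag
miR-485*: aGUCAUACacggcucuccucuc
The next 5 passed it on 0 arrays.
miR-127: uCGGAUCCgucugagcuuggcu
miR-379: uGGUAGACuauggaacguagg
miR-410: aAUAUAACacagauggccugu
miR-376b: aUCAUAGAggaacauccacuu
miR-495: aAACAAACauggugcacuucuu

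Detection required that both spots of a probe had passed the authors' threshold on blank spots. By this measure miR-494, miR-370 and miR-667, 3 of the 78 cluster probes, had signal on every one of the 10 arrays. A further 10 were detected on 5 to 9 arrays and 25 on 1 to 4, while 40 were never detected. The 3 made up 3.85% of the cluster, against 25.1% detected on all arrays among the 962 other mouse probes. The 40 made up 51.3%, against 32.8% of the other mouse probes and 41% of the viral probes. Probes for viral miRNAs, which uninfected cells should lack, were detected on all 10 arrays in 7 of 39 cases (17.9%). These viral probes give the background of the detection calls. With a stricter threshold of 3 SD above the mean of the blank spots, miR-494 was the one cluster probe detected on all 10 arrays, miR-667 passed on 9, miR-370 on 8 and miR-668 on 5, and 66 of the 78 passed on none. Under that threshold 16.7% of all mouse probes and 10.3% of viral probes passed on all arrays.

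**Figure D1:**
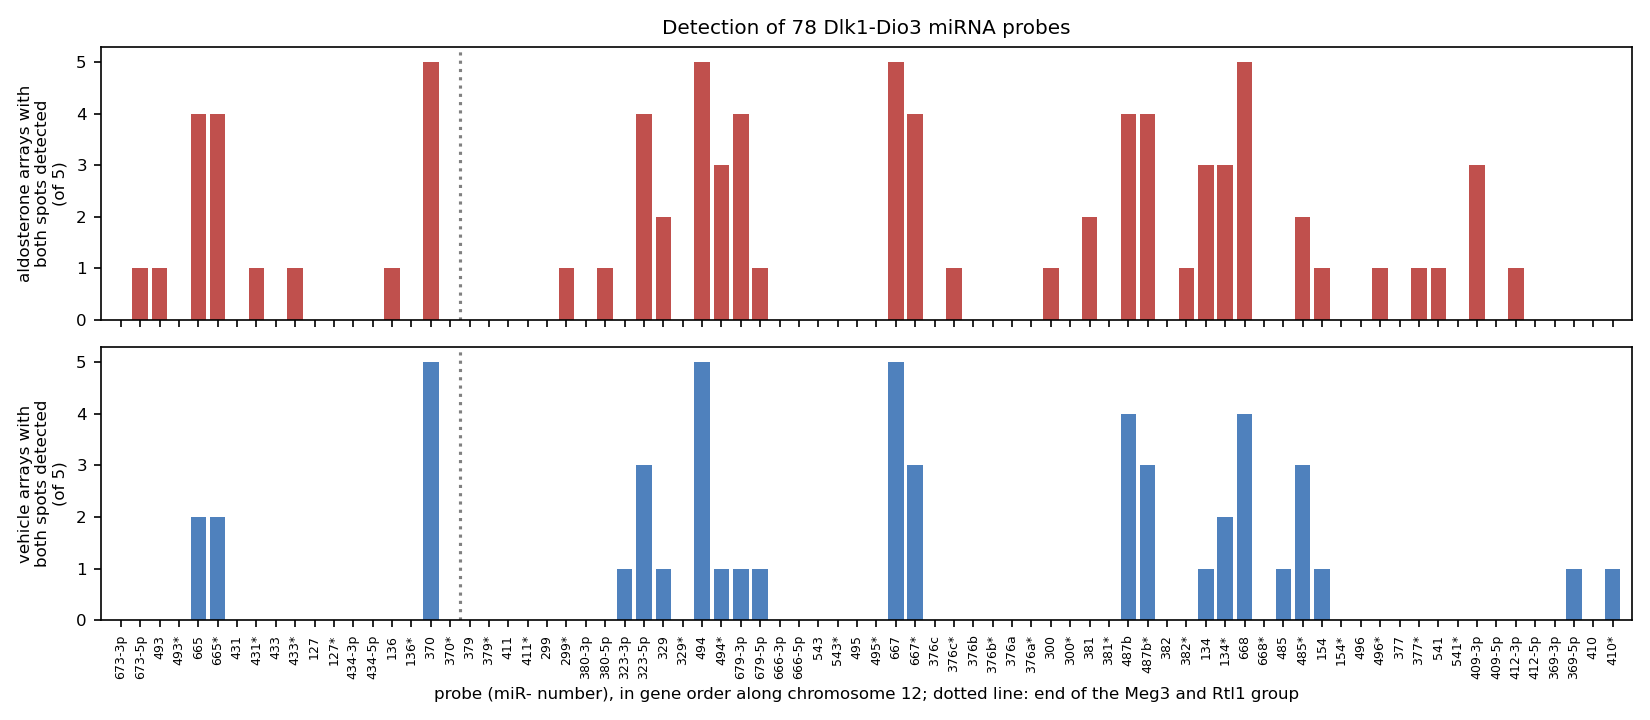
Number of arrays (of 5 per group) on which both spots of each of the 78 cluster probes were detected, with aldosterone above and vehicle below, in gene order along chromosome 12 (RefSeq order, GRCm38.p6). The 3 full columns in both panels are miR-370, miR-494 and miR-667, and 40 probes have no bar in either panel.

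The members never detected when both spots were required included the miRNAs for which the locus is best known. Among those next to Meg3 and Rtl1, 10 of 18 probes were detected on no array. They included both arms of miR-127 and miR-434 and the major arms of miR-431 and miR-433, which lie antisense to Rtl1 and direct cleavage of its transcript in mouse. Raw miR-127 intensity lay between -0.39 and 1.65 units above the blank mean with aldosterone and between -1.5 and 0.99 with vehicle. Its signal thus straddled that of blank spots in both groups. Another antisense member, miR-136, was detected on 1 array, an aldosterone array. The tested probes of this group, those detected on at least 5 arrays, were miR-370, miR-665 and miR-665*.

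In the larger group from miR-379 to miR-410, which neuronal activity induces through MEF2 in rat neurons, 30 of 60 probes were detected on no array and 10 were tested. miR-379 and miR-410, the first and last members of that group, were not detected on any array. Raw miR-379 intensity was -0.11 to 1.08 units above the blank mean with aldosterone and -0.25 to 1.05 with vehicle, and that of miR-410 was -1.28 to 0.81 with aldosterone and -0.61 to 0.9 with vehicle. Both arms of miR-376a and miR-376b, whose precursors are edited from adenosine to inosine in brain, both arms of miR-411, miR-495, miR-543 and miR-666, and the major arm of miR-382 were likewise detected on none. The tested share was 16.7% in each of the 2 groups.

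Neighbours on the chromosome differed in detection. miR-494, detected on all 10 arrays, lies between miR-329, detected on 3 arrays, and miR-679, whose 3p arm was detected on 5 and 5p arm on 2. miR-667 was detected on all 10 arrays and the major arms of its neighbours miR-495 and miR-376c on none. Both arms were present on the array for all 39 hairpins. For 3 hairpins both arms were tested (miR-487b, miR-665 and miR-667), for 7 hairpins 1 arm, and for 29 hairpins no arm, with both arms on no array for 9. Of miR-370 the major arm was detected on 10 arrays and miR-370* on none, and of miR-494 the major arm was detected on 10 arrays and miR-494* on 4. For miR-134, which represses Limk1 in dendrites of rat hippocampal neurons, the star arm was detected on 5 arrays and the major arm on 4.

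Of the 25 probes detected on 1 to 4 arrays, miR-134 and miR-494* were detected on 4, miR-329 and miR-409-3p on 3 and miR-154, miR-381 and miR-679-5p on 2. The other 18 were detected on a single array. For 14 of them it was an aldosterone array (miR-136, miR-299*, miR-300, miR-376c*, miR-377*, miR-380-5p, miR-382*, miR-412-3p, miR-431*, miR-433*, miR-493, miR-496*, miR-541 and miR-673-5p) and for 4 a vehicle array (miR-323-3p, miR-369-5p, miR-410* and miR-485). Mouse probes of all kinds were also detected more often with aldosterone, at a mean of 461 per array against 392 with vehicle. The same split over all mouse probes detected on a single array was not counted, so 14 against 4 cannot be read as particular to the cluster. Of the 18 cluster probes, 7 were detected only on aldosterone replicate 3, the array with the most detected mouse probes of all (583). The matching share over all mouse probes was not counted either. Without that array the number of cluster probes detected on none was 47.

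Tested members were richer in G and C than the others of the cluster. A RefSeq sequence was matched for 75 of the 78 probes. The G and C content had a median of 65% in the 12 tested members with a sequence (45.5% to 72.7%), 50% in the 24 detected on 1 to 4 arrays and 45.5% in the 39 detected on none (23.8% to 68.2%). None of the 22 members with less than 45% G and C was tested, against 4 of 34 (11.8%) with 45% to 55% and 8 of 19 (42.1%) with more than 55%. Of other mouse probes whose printed name equals a RefSeq name, 12 of 67 (17.9%) were tested below 45%, 22 of 94 (23.4%) between 45% and 55% and 59 of 98 (60.2%) above 55%. The share was larger in the classes richer in G and C outside the cluster too, and in each class it was lower in the cluster. The part of base composition in these detection shares was not tested.

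**Figure D2:**
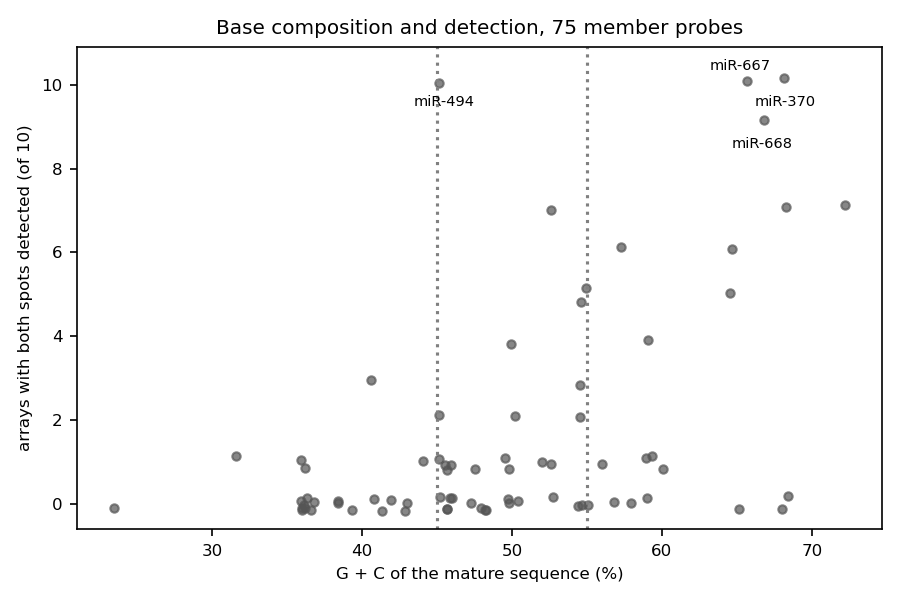
G and C content of the mature sequence in percent (x axis) against the number of arrays, of 10, on which both spots were detected (y axis), 1 point for each of the 75 cluster probes with a RefSeq sequence, moved slightly at random so that points do not overlap, with dotted lines at 45% and 55%. Most probes detected on 5 or more arrays lie to the right, while miR-494 stands at 45.5% and was detected on all 10 arrays.

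Few members shared a seed. The 75 matched members had 72 distinct seeds. The 3 shared seeds joined miR-379* with miR-411*, miR-494* with miR-410*, and miR-376b* with miR-376c*, none of them tested. Among the 12 tested members with a sequence the longest stretch in common was the 9 bases CAUACACGG of miR-494 and miR-485*. Every other pair of them shared at most 6 bases in a row. The tested miR-487b had no matched sequence and was not compared. Of the 12, miR-134* was the only one whose seed stood in another mouse miRNA of the RefSeq table, miR-3620-5p.

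The comparison of aldosterone with vehicle asked whether the hormone altered these miRNAs. None of the 13 tested members passed the threshold of a Benjamini-Hochberg adjusted p under 0.05 in either direction, 5 being higher and 8 lower with aldosterone (limma, adjusted p = 0.9445 to 0.9936; 0 at an unadjusted p under 0.05). Over all 430 tested mouse probes the share called was 0%, with 1.86% at an unadjusted p under 0.05 and 4.42% when same-numbered samples were treated as blocks, where 0 members were. Of the 13 tested members 0 were higher and 0 lower in all 5 same-numbered pairs, as were 3.72% and 2.33% of all tested probes. Of all tested probes 53.3% were higher with aldosterone. The direction depended on the scaling: 12 of the 13 members were higher without normalization between arrays and 0 under 75th percentile scaling. The median log2 change was -0.007 over the members and 0.003 over all tested probes. In 0 of the 13 did the groups lie apart, as in 0% of all tested probes in either direction. Values below are intensities above background after normalization between arrays, and log2 changes are on the log2(intensity + 50) scale, which compresses the change of dim probes. These intensities have a floor above 0. The 40 members detected on no array had means of 2.33 to 3.98 units with aldosterone and 2.364 to 4.255 with vehicle. Means and ratios of dim probes include this floor and are not folds of signal alone. Probes hybridize with different efficiency, so changes are compared within a probe. Words such as bright and dim describe the signal of a probe, not the amount of its miRNA. Differences in detection between probes, neighbours or arms are differences in signal too.

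miR-494 was the bright member. It had 112, 117, 71.0, 93.7 and 95.5 intensity units in aldosterone replicates 1 to 5, against 117, 167, 99.3, 82.2 and 102 in vehicle replicates 1 to 5. Vehicle replicate 2 was the highest array and aldosterone replicate 3 the lowest, and the groups overlapped. The mean was 97.8 ± 18 with aldosterone and 113 ± 32.2 with vehicle (SD, n = 5 each), a log2 change of -0.13 (SE 0.14, limma adjusted p = 0.9445), lower in 4 of 5 same-numbered pairs. Back-transformed, the ratio of aldosterone to vehicle was 0.87 with a 95% interval of 0.62 to 1.18. That interval is from the fit without pairing. With same-numbered samples as blocks the log2 change was the same, with SE 0.079 and limma adjusted p = 0.7438.

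The direction for miR-494 depended on the scaling. Before normalization between arrays its raw intensity above the blank mean was 136.01, 87.0, 198, 93.9 and 76.8 with aldosterone, against 112, 62.7, 203, 36.3 and 60.3 with vehicle. It was then higher with aldosterone in 4 of 5 pairs (mean 118 ± 50.0 against 95.0 ± 66.5, SD, n = 5 each), where 422 of the 430 tested probes (98.1%) also had the higher mean with aldosterone. Vehicle replicate 2, the highest after normalization, was not the highest before it. That array had the fewest detected mouse probes (275), and 5 of the 13 tested members had their highest normalized value on it and 3 their lowest. Without vehicle replicate 2 the log2 change of miR-494 was -0.0267.

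miR-370, reported to repress the fatty acid oxidation enzyme CPT1A in human liver cells, was dim. It had 9.79, 8.95, 10.1, 10.1 and 8.68 units with aldosterone, against 8.72, 9.97, 7.31, 9.46 and 8.72 with vehicle. Vehicle replicate 3 lay below all aldosterone arrays and the other vehicle arrays within their range. The means were 9.53 ± 0.67 with aldosterone and 8.84 ± 1.0 with vehicle (SD, n = 5 each), a log2 change of 0.02 (SE 0.015, limma adjusted p = 0.9445) and a ratio of 1.08 with a 95% interval of 0.92 to 1.24. The log2 change was 0.00748 without vehicle replicate 3 and 0.00381 without replicate 3 in both groups. Before normalization it was higher with aldosterone in 5 of 5 pairs, as were 3 of the 13 tested members and 35.8% of all tested probes.

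miR-667 had 9.46, 9.21, 9.97, 10.3 and 9.72 units with aldosterone, against 10.6, 10.8, 9.97, 11.8 and 9.49 with vehicle. Aldosterone replicates 1 and 2 lay below all vehicle arrays, the other 3 lay within the vehicle range, and 1 pair was tied. The log2 change was -0.02 (SE 0.013, limma adjusted p = 0.9445), with a ratio of 0.92 and a 95% interval of 0.81 to 1.04. The other arm, miR-667*, had 5.96, 5.3, 6.84, 7.15 and 6.73 units with aldosterone, against 3.40, 3.35, 5.66, 8.52 and 5.74 with vehicle. It was higher with aldosterone in 4 of 5 pairs, although its highest array was vehicle replicate 4, and its mean was 6.40 ± 0.75 with aldosterone and 5.33 ± 2.13 with vehicle (SD, n = 5 each; log2 change 0.03, SE 0.026, limma adjusted p = 0.9445). The log2 change of miR-667* was 0.0152 without vehicle replicate 2 and 0.0486 without vehicle replicate 4. Vehicle replicate 2 was near background for miR-667*, at a raw intensity of 0.077 units above the blank mean. The arms of this hairpin lay on opposite sides of 0, with both intervals including 0. The difference between the arms was not tested.

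**Figure D3:**
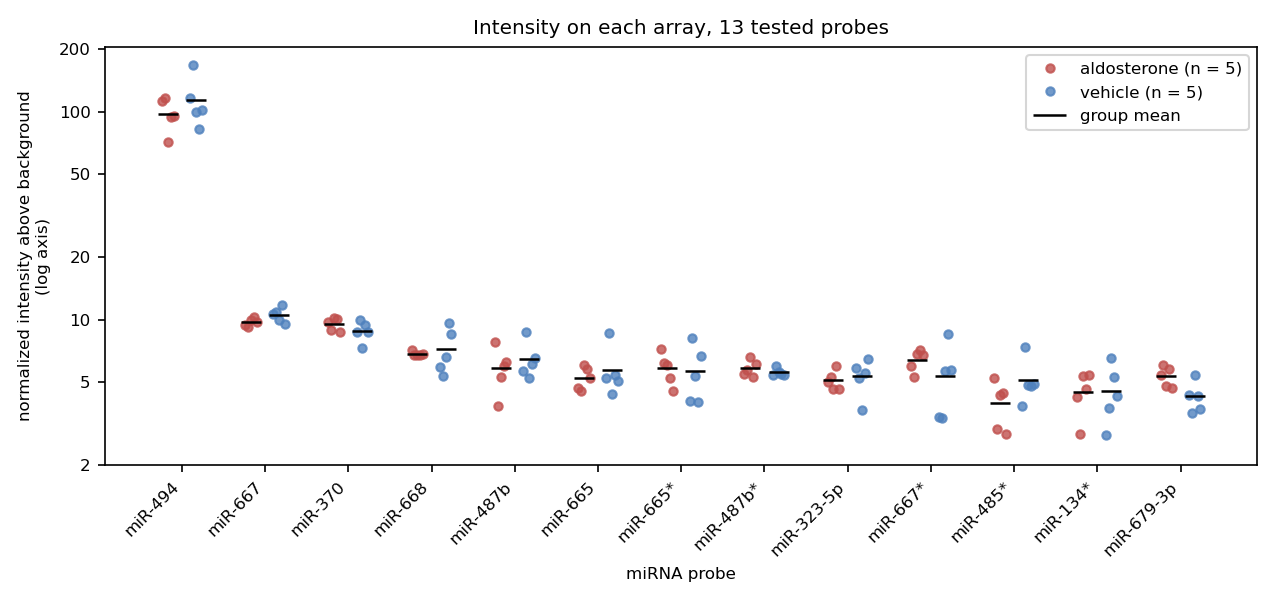
Normalized intensity above background on each array (log axis) for the 13 tested members, with 5 aldosterone arrays (red, left) and 5 vehicle arrays (blue, right) per probe and the group mean as a black line. miR-494 averaged 97.8 with aldosterone and 113 with vehicle, the other 12 probes had group means of 3.97 to 10.5, and the groups overlap for every probe.

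The smallest unadjusted p among the members on the higher side was that of miR-679-3p. It had 5.40, 6.06, 4.79, 5.77 and 4.70 units with aldosterone, against 4.36, 3.54, 5.43, 4.29 and 3.72 with vehicle. Vehicle replicate 3 lay within the aldosterone range and the other vehicle arrays below it. The lowest array, vehicle replicate 2, was near background, at a raw intensity of 0.241 units above the blank mean. The mean was 5.34 ± 0.59 with aldosterone and 4.27 ± 0.74 with vehicle (SD, n = 5 each; log2 change 0.03, SE 0.013, limma unadjusted p = 0.05988, adjusted p = 0.9445), with a ratio of 1.25 and a 95% interval of 0.99 to 1.52. It was detected on 4 aldosterone arrays and 1 vehicle array, and its log2 change was -0.0219 under 75th percentile scaling, where the median of all tested probes was -0.0533, and -0.216 in the deposited normalized table, where that median was 0.266.

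The smallest on the lower side was that of miR-485*, at 5.24, 2.99, 4.36, 4.46 and 2.83 units with aldosterone and 3.83, 7.35, 4.86, 4.79 and 4.88 units with vehicle. It was lower with aldosterone in 4 of 5 pairs (log2 change -0.03, SE 0.020, limma unadjusted p = 0.1577, adjusted p = 0.9445), with a ratio of 0.77 and a 95% interval of 0.45 to 1.11. Its widest gap was at vehicle replicate 2, and without replicate 2 in both groups the log2 change was -0.00991. Its lowest array, aldosterone replicate 5, was at background, with a raw intensity of -0.0753 units relative to the blank mean, so no fold between its highest and lowest array is given.

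The other 7 tested members had group means of 4.49 to 6.85 units with aldosterone and 4.52 to 7.21 with vehicle. miR-668 had 7.15, 6.78, 6.76, 6.72 and 6.86 units with aldosterone, against 5.94, 5.35, 6.62, 9.65 and 8.48 with vehicle. The aldosterone arrays lay close together (SD 0.17) and the vehicle arrays on both sides of them (SD 1.80). Its log2 change was -0.01 (SE 0.021, limma adjusted p = 0.9527).

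miR-665 had 4.70, 4.55, 6.02, 5.80 and 5.23 units with aldosterone, against 5.21, 8.60, 4.38, 5.42 and 5.05 with vehicle. Vehicle replicate 2 stood above all other arrays. The other arm, miR-665*, had 7.20, 6.16, 6.06, 5.22 and 4.55 units with aldosterone, against 4.04, 8.13, 5.35, 4.02 and 6.67 with vehicle. Here too vehicle replicate 2 was the highest, and 2 other vehicle arrays were the lowest. The log2 changes were -0.01 for miR-665 and 0.005 for miR-665*, with limma adjusted p = 0.9527 for both.

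miR-487b had 7.78, 3.83, 5.27, 5.98 and 6.24 units with aldosterone, against 5.64, 8.72, 5.22, 6.10 and 6.56 with vehicle. The lowest array was aldosterone replicate 2 and the highest its vehicle counterpart. miR-487b* had 5.47, 5.75, 6.64, 5.32 and 6.09 units with aldosterone, against 5.42, 5.99, 5.61, 5.49 and 5.42 with vehicle. All vehicle arrays of miR-487b* lay within the aldosterone range. The log2 changes were -0.02 for miR-487b and 0.007 for miR-487b*.

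miR-323-5p had 4.98, 5.27, 4.62, 6.01 and 4.63 units with aldosterone, against 5.87, 5.23, 3.68, 5.55 and 6.47 with vehicle. The vehicle arrays held both its highest and its lowest value. miR-134* had 4.26, 2.83, 5.33, 4.64 and 5.39 units with aldosterone, against 2.78, 3.74, 6.51, 5.27 and 4.28 with vehicle. The groups again overlapped, with log2 changes of -0.007 for miR-323-5p and -0.0005 for miR-134*. The ratio of aldosterone to vehicle for miR-134* was 1.0 with a 95% interval of 0.6 to 1.41. Some of its arrays were near background. Raw intensity above the blank mean was 0.181 units on aldosterone replicate 2, 0.308 on vehicle replicate 1 and 0.408 on vehicle replicate 2.

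**Figure D4:**
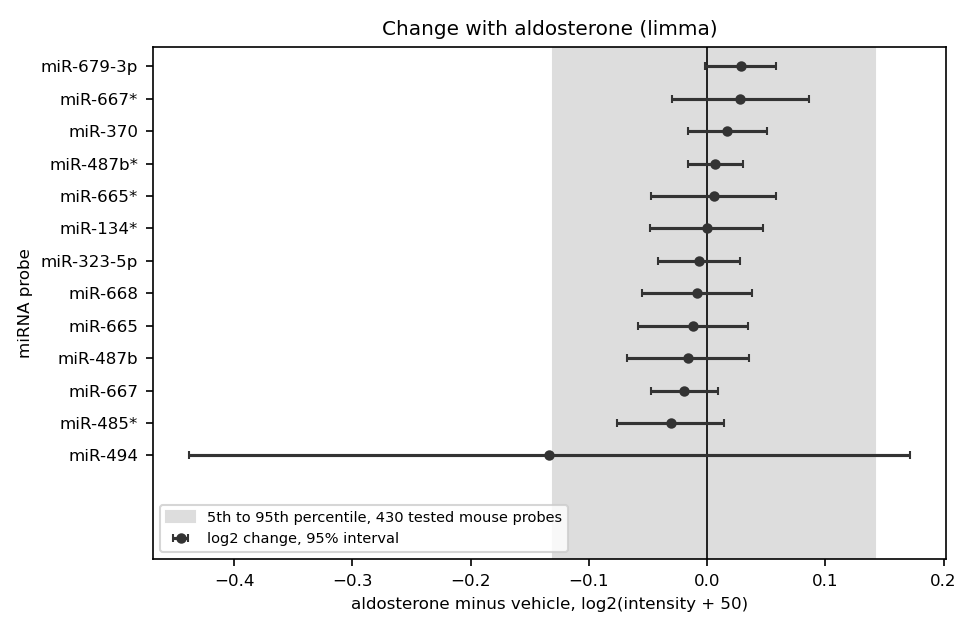
Log2 change, aldosterone minus vehicle, on the log2(intensity + 50) scale with its 95% interval (limma, 5 arrays per group) for the 13 tested members, over a grey band from the 5th to the 95th percentile of all 430 tested mouse probes (-0.13 to 0.14). Every interval includes 0. On this scale, which compresses the change of dim probes, miR-494 has the widest. As ratios of aldosterone to vehicle, the interval of miR-667* (0.79 to 1.64) is wider than that of miR-494 (0.62 to 1.18).

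The number of cluster probes detected was 20, 10, 26, 17 and 9 on aldosterone replicates 1 to 5, against 6, 7, 15, 13 and 10 on vehicle replicates 1 to 5. It was higher with aldosterone in 4 of 5 pairs, and the ranges overlapped. The mean was 16.4 ± 7.09 with aldosterone and 10.2 ± 3.83 with vehicle (SD, n = 5 each), a difference of 6.2, which was 3.8 without aldosterone replicate 3 and 1.6 at the threshold of 3 SD. All mouse probes moved the same way, with 461 ± 78.4 detected with aldosterone and 392 ± 84.3 with vehicle. As a share of the detected mouse probes, cluster probes made up 3.44% ± 0.99 with aldosterone and 2.62% ± 0.84 with vehicle, higher in 3 pairs and lower in 2. The part of array-wide brightness in the count was not tested.

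**Figure D5:**
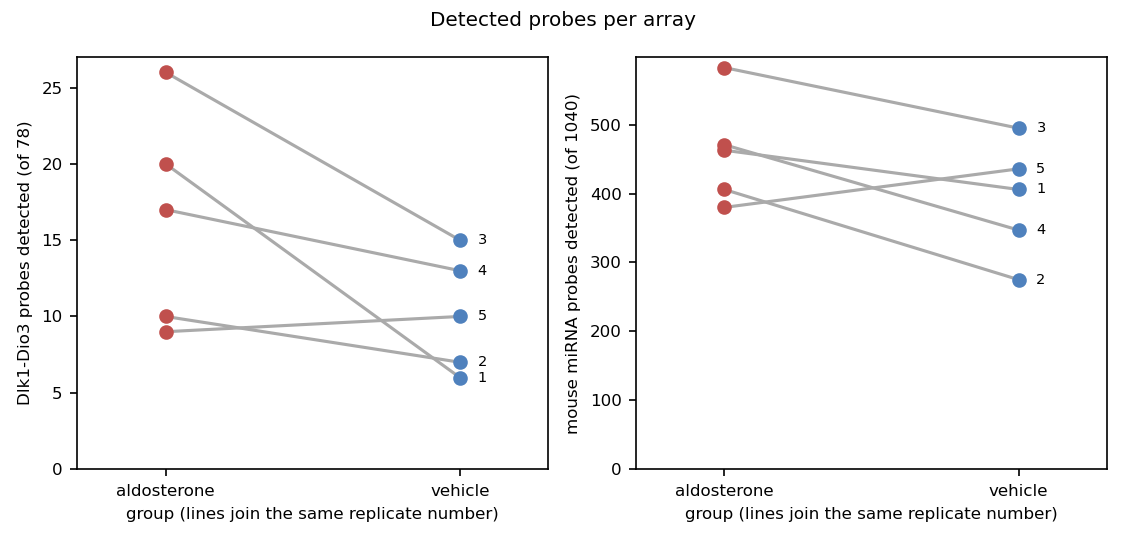
Cluster probes (left, of 78) and all mouse miRNA probes (right, of 1040) detected on each array, with aldosterone at the left and vehicle at the right of each panel and lines joining arrays of the same replicate number. In both panels 4 of 5 lines are higher at the aldosterone end, and replicate 3 is the highest pair.

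The locus holds further miRNAs outside the 37 numbers. Of 30 probes for them, 16 were never detected, 10 were detected on 1 to 9 arrays and 4 on every array, and 8 were tested. miR-3072* averaged 113 ± 15.8 units with aldosterone, against 155 ± 56.0 with vehicle, and for miR-3072 the means were 39.5 ± 7.39 units under aldosterone and 33.3 ± 7.33 under vehicle (SD, n = 5 each). Neither passed the threshold (log2 changes -0.29 and 0.10, limma adjusted p = 0.9445). miR-770-3p and miR-1188* were the other 2 probes on all arrays, at group means of 6.93 to 8.44 units. Of the 8 tested, 2 were higher and 6 lower with aldosterone, and 0 passed. Over all 430 tested mouse probes 53.3% were higher, a share that depended on the scaling.

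The cell type was checked against marker miRNAs. Of the epithelial miR-200 family, miR-200a, miR-200b and miR-429 had signal on each of the 10 arrays, while miR-141 was detected on 1 and miR-200c on 2. Of markers of other cell types, 0 of 6 fibroblast, smooth muscle and endothelial probes, 0 of 4 neuronal and 0 of 9 embryonic stem cell probes were detected on all arrays. Over all mouse probes that share was 23.5%. miR-143, miR-145 and miR-124 were detected on none, as were 34.2% of all mouse probes. With lists this short, the counts do not show that these markers were absent. In each of those 3 lists 2 probes passed on at least 5 arrays, as did 41.3% of all mouse probes. The listed probes that passed were miR-126-3p on 9 arrays (mean 9.55 units with aldosterone and 8.13 with vehicle) and miR-214 on 6, the neuronal miR-9 on 8 and miR-138 on 6, and the stem cell miR-292-3p on 6 and miR-290-3p on 5. Viral probes, the background of these calls, were detected on all arrays in 17.9% of cases. All samples came from a single cell line, and the source of the marker calls was not tested.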

How the data were processed

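RNA labelled with Hy5 was hybridized to 1-colour arrays with 3136 spots, 2 per miRNA probe. Per the readme deposited with the files, the authors digitized each spot's raw intensity, took the average of blank spots as background, called spots above background plus 2 SD positive, averaged duplicates and scaled each array to a median of 25. The lowest spot kept lay 1.15 to 1.5 SD above the mean of all unflagged blank spots. The threshold behind the deposited calls was thus lower than the mean plus 2 SD of all blanks. Whether its mean or its SD differed is not known. Blank means were 17.6 to 21.5 units. The number of arrays limits the precision.

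Here raw intensity was corrected with normexp (offset 50), log2 values of both spots were averaged, and miRNA probes were quantile-normalized (R 4.3.3, limma 3.58.1). The 4 spots flagged by the authors were left out. Mouse probes detected on at least 5 of 10 arrays (430) were fitted with limma, two-sided, Benjamini-Hochberg over all of them, and the fit was tested on simulated data. By rule, tested members were named with every array's value and other detected members with their number of arrays; undetected ones were counted and named by place. Members and lists were chosen with earlier results of these data known.

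Titles share 5 starting codes, numbered as replicates 1 to 5. Arrays with the same number deviated together from their group means (r 0.202 to 0.814 over the 5 pairs), so the numbers pair the samples, and a fit with the number as a block was an alternative. Unless stated otherwise, printed SEs, intervals, ratios and limma p-values are from the fit without the block. The median SE of the tested members was 0.0206 without the block and 0.0182 with it. No array file repeats another. Of 78 members, 18 names state the arm; for the other 60 it was taken from later naming, as background knowledge. RefSeq sequences matched 75. The files name no genome build, so no coordinates are given.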

Additional observations from a re-analysis of the deposited data

Results flagged for a closer look

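In vehicle replicate 2, miR-665 had a normalized intensity of 8.6 units, far above the other 4 vehicle arrays (4.38 to 5.42), with a gap of 0.754 of the group's range. It was the 1 case among 28 groups of 5 arrays checked, and chance gives about 1 in 20 groups. The same array had the highest normalized value of 5 of the 13 tested members and the fewest detected mouse probes (275).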

How the results depend on the processing

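No setting brought a member past the threshold, without or with the replicate block (0 of 13 each; with the block the smallest limma adjusted p was 0.7438 and 19 of 430 tested probes were at an unadjusted p under 0.05, against 8 without it), and the count was 0 without any single array or pair. At an unadjusted p under 0.05 there was 1 member in the deposited normalized table (5.15% of all probes fitted), without the filter on dim probes (3.08%), without vehicle replicate 3 (4.88%), without vehicle replicate 4 (1.4%) and without replicate 3 in both groups (3.72%), and 2 with the block and without replicate 4 (3.95%). The block with each pair left out, and the detection counts without each array, were added after the data were seen. The median log2 change of the members was 0.0284 without normalization between arrays, where 96% of all tested probes were higher, and -0.067 under 75th percentile scaling, where 13% were. It ran from -0.0121 to 0.0101 when arrays or pairs were left out. Without normalization between arrays the log2 change was 0.27 for miR-494, 0.0346 for miR-667, 0.0244 for miR-668, 0.0153 for miR-665, 0.0108 for miR-487b, 0.0089 for miR-134* and 0.00836 for miR-323-5p. Under 75th percentile scaling it was -0.0443 for miR-370, -0.0512 for miR-487b*, -0.0538 for miR-665*, -0.0252 for miR-667* and -0.0219 for miR-679-3p. In the deposited normalized table, which lacks values for spots under the threshold so that fits drop those arrays, and where the median of all probes was 0.266, it was 0.381 for miR-494, 0.196 for miR-667, 0.175 for miR-485* and -0.216 for miR-679-3p. With single arrays left out the sign turned for miR-134* (-0.0121 to 0.0126), miR-323-5p (-0.0177 to 0.00057), miR-665 (-0.0205 to 0.00647), miR-665* (-0.00512 to 0.0214) and miR-668 (-0.0202 to 0.00685). With a pair left out, with or without the block, it turned for miR-134* (0.00554, 0.00702 and 0.00349 without replicates 2, 3 and 4), miR-665* (-0.0137 and -0.00117 without replicates 1 and 4), miR-323-5p (0.00369 without replicate 5), miR-668 (0.00769 without replicate 4), and miR-487b and miR-665 (0.0111 each without replicate 2). With single arrays left out, the range was -0.205 to -0.0267 for miR-494, 0.00748 to 0.0238 for miR-370, -0.0256 to -0.012 for miR-667, 0.0152 to 0.0486 for miR-667*, -0.0288 to -0.0019 for miR-487b, 0.00178 to 0.0103 for miR-487b*, -0.0393 to -0.0165 for miR-485* and 0.0235 to 0.036 for miR-679-3p. Members detected on all arrays numbered 1, and on none 66, at blank mean plus 3 SD, and 6 and 4 where 1 spot or a value in the deposited table sufficed. Without each array they were 3 to 4 and 40 to 47, and the difference in members detected per array was 3.8 to 8.05. That difference was 1.6 at blank mean plus 3 SD and 7.8 where 1 spot sufficed, against 6.2. The causes were not tested. Dim signal over background limits all members but miR-494.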
